A study of Mus musculus with 8 samples.

Results

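The genes that detect double-stranded RNA in the cytosol and in endosomes, and that pass the signal on, were followed in mouse oocytes lacking the deadenylases Cnot7 and Cnot8. The set holds 9 genes of the 46078 in the count table, taken by their symbols: the sensors Ifih1, Ddx58, Dhx58 and Tlr3, the adaptor Mavs, the kinase Tbk1, the transcription factor Irf3, the effector kinase Eif2ak2 and the RNA editor Adar. All 9 were among the 19241 genes that passed the filter on low counts. RNA-seq was done on fully grown germinal vesicle (GV) stage oocytes, 100 per library, in 4 libraries labelled Zp3-Cre (control) and 4 labelled CNOT7&8 KO. The females were 4 weeks old, had a C57BL/6J background and received pregnant mare serum gonadotropin 48 h before collection. Both groups carried the Cre transgene. In the KO the floxed Cnot7 and Cnot8 genes were deleted by Cre under the Zp3 promoter, which acts in growing oocytes, so that somatic cells of the ovary kept both genes. The labels do not say whether libraries came from separate females, and p-values measure only the spread between these libraries.

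Ifih1 encodes MDA5 and Ddx58 encodes RIG-I, helicases that bind double-stranded RNA in the cytosol and signal through the mitochondrial protein Mavs. Tlr3 does the same from endosomes through another adaptor, and both routes lead to the kinase Tbk1 and the transcription factor Irf3, which switch on type I interferon genes. Eif2ak2 (PKR) phosphorylates eIF2α when bound to double-stranded RNA and so lowers translation, and Adar edits adenosines in such duplexes and keeps a cell's own RNA from being sensed. Mouse oocytes are known to tolerate long double-stranded RNA, which they process by RNA interference, with little interferon response. The CCR4-NOT complex, whose catalytic subunits include Cnot7 and Cnot8, shortens the poly(A) tails of mRNAs.

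Library totals were between 14943671 and 44092144 counts in the control and between 8639444 and 26784110 in the KO. Values are given as CPM, read counts scaled to a common library size by the TMM method, so each is relative to the rest of its library and says nothing of the amount of RNA per oocyte. The targeted gene Cnot8 stood at 168 CPM in the control and 35.2 CPM in the KO (log2 fold change -2.25 ± 0.12 SE, edgeR quasi-likelihood adjusted p = 8.2e-08). Cnot7 stood at 933 and 719 CPM (log2 fold change -0.38 ± 0.11 SE, adjusted p = 0.0105), with every KO library below every control library. The counts cover whole genes, and the share of each transcript that the deletion removes was not analysed here. Control replicate 1 and KO replicate 4 were the deepest libraries of their groups and deviated from their group means together (r = 0.593 across genes, which are not independent replicates). The 16 oocyte markers summed to between 27256 and 29736 CPM in the control and between 20739 and 24459 CPM in the KO. At an adjusted p of 0.05 or less, 3 were higher and 9 lower, against 31.2% and 24.1% of all tested genes. Most of the markers lay at 100 CPM or more, where 8.33% of tested genes were higher and 55.3% lower.

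Of the 9 genes, 5 were higher in the KO, 2 were lower and 2 did not pass the test. Ifih1, Tlr3, Eif2ak2, Mavs and Tbk1 were higher, and of these Ifih1, Tlr3 and Eif2ak2 changed at least 2-fold and counted as differentially expressed genes (DEGs), defined by an adjusted p of 0.05 or less together with a 2-fold or larger difference. Ddx58 and Adar were lower, by less than 2-fold. Among all tested genes, 31.2% were higher and 24.1% were lower at the same adjusted p, while 23.8% were DEGs higher in the KO and 6.56% were DEGs lower in the KO. The median log2 fold change was 0.74 over the 9 genes and 0.12 over all tested genes. Ifih1 and Dhx58 passed the filter through the KO libraries, since fewer than 2 control libraries reached it, and 2 of the other 7 genes were DEGs higher in the KO. The counts are read only against these shares, and nothing particular to the set is drawn from them. The KO libraries lay wholly above the control libraries for 5 of the genes and wholly below for 2, against 27.0% and 21.4% of all tested genes. For each of these 7 genes the exact two-sided permutation test gave p = 0.0286, the smallest value that 4 libraries against 4 allow.

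**Figure D1:**
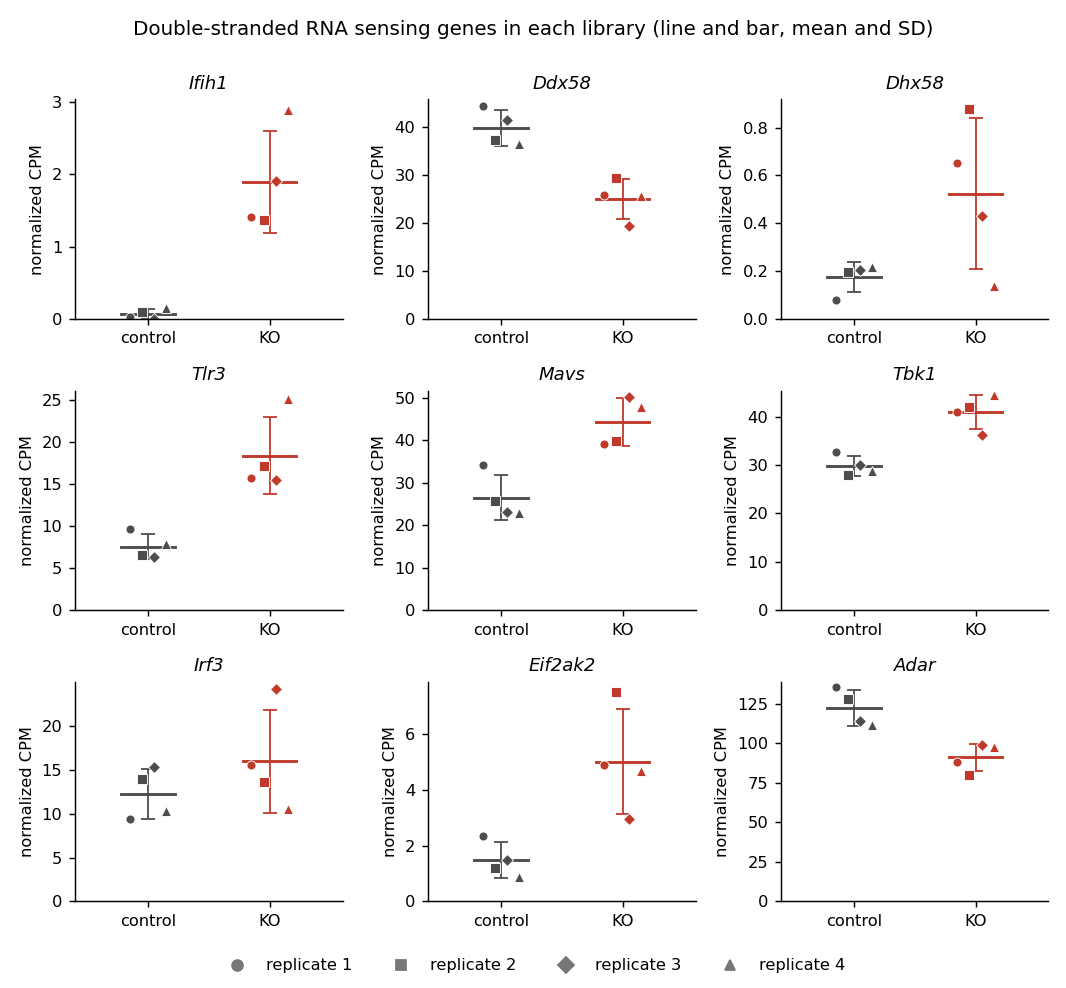
Normalized CPM (vertical axes, each starting at 0) of the 9 genes in the 4 control and 4 KO libraries, with 1 symbol per replicate number and the mean and SD as a line and bar. The groups overlap for Dhx58 and Irf3 and do not overlap for the other genes.

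Ifih1, the gene for MDA5, which binds long double-stranded RNA, lies at chr2:62595798-62646255 on the minus strand (GRCm38). The control libraries held 1, 2, 0 and 2 counts (replicates 1 to 4) and the KO libraries 13, 25, 31 and 85 counts. These were 0.0267, 0.0987, 0.00 and 0.146 CPM in the control and 1.41, 1.37, 1.91 and 2.89 CPM in the KO. Every KO library was above every control library, and the control was at or near the limit of detection, where 3 counts correspond to between 0.0802 and 0.218 CPM. The pooled ratio of KO to control was 36.3, with a 95% interval for counting error alone of 15.2 to 113. In the fit across all genes the log2 fold change was 4.88 ± 0.57 SE (edgeR quasi-likelihood adjusted p = 2.39e-05), a value that at so few control counts depends on the prior count of the fit. No control library reached the 0.2 CPM of the low-count filter, so Ifih1 was tested only because it was high in the KO, and its call is given as a description. Among the 5483 tested genes under 1 CPM, where Ifih1 lay with a mean of 0.983 CPM, 35.5% were DEGs higher in the KO. Fewer than 2 control libraries reached the filter for 3042 tested genes, of which 58.7% were DEGs higher in the KO, against 17.3% of the other 16199.

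Ddx58, the gene for RIG-I, which binds short duplexes with a 5′ triphosphate, lies at chr4:40203773-40239828 on the minus strand. It was measured at 44.4, 37.2, 41.3 and 36.3 CPM in the control and at 25.7, 29.3, 19.2 and 25.5 CPM in the KO. The lowest control library was above the highest KO library. The level in the KO was 62.7% of that in the control (log2 fold change -0.67 ± 0.15 SE, edgeR quasi-likelihood adjusted p = 0.00208). Under the alternatives tried it stayed past the threshold with a log2 fold change between -0.74 and -0.39. Among the 6314 tested genes with a mean between 10 and 100 CPM, 36.8% were lower in the KO past the threshold. The median log2 fold change of those 6314 genes was -0.17. Ddx58 was thus lower in the KO where Ifih1, the gene of the related receptor, was higher. Ifih1, however, was tested only because it was high in the KO.

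Dhx58, the gene for LGP2, a relative of MDA5 and RIG-I that lacks their signalling domains, lies at chr11:100694884-100704271 on the minus strand. Counts were 3, 4, 3 and 3 in the control and 6, 16, 7 and 4 in the KO. These were 0.0802, 0.197, 0.204 and 0.218 CPM in the control and 0.651, 0.879, 0.432 and 0.136 CPM in the KO. KO replicate 4 fell among the control libraries, so the groups overlapped. The log2 fold change was 1.59 ± 0.66 SE and did not pass the threshold (edgeR quasi-likelihood adjusted p = 0.0564), and the pooled ratio was 2.99 with a 95% counting interval of 1.53 to 6.20. Leaving out 1 library at a time gave a log2 fold change between 1.15 without KO replicate 2 (adjusted p = 0.206) and 2.0 without KO replicate 4 (adjusted p = 0.0143). The gene shares 141 exon bases with Dhx58os on the opposite strand, which had at most 2 counts in any library.

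Tlr3, the receptor that meets double-stranded RNA inside endosomes, lies at chr8:45395665-45411080 on the minus strand. It was measured at 9.59, 6.51, 6.26 and 7.79 CPM in the control and at 15.7, 17.1, 15.4 and 25.1 CPM in the KO. The groups did not overlap, and KO replicate 4 was the highest library. The means were 7.54 ± 1.53 and 18.3 ± 4.57 CPM (SD, n = 4), a 2.43-fold difference. The log2 fold change was 1.28 ± 0.21 SE (edgeR quasi-likelihood adjusted p = 0.000247). Among the 6314 tested genes with a mean between 10 and 100 CPM, 12.7% were DEGs higher in the KO.

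Mavs, the adaptor on mitochondria that RIG-I and MDA5 both need, lies at chr2:131234063-131248025 on the plus strand. It stood at 34.3, 25.8, 23.2 and 22.8 CPM in the control and at 39.1, 39.8, 50.2 and 47.8 CPM in the KO. Control replicate 1 was the highest control library and still below the lowest KO library. The log2 fold change was 0.74 ± 0.16 SE (edgeR quasi-likelihood adjusted p = 0.00193), below the 2-fold threshold. With library size as the only scaling it was 1.03, past that threshold.

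Tbk1, the kinase on which the Mavs and Tlr3 routes meet, lies at chr10:121546455-121586787 on the minus strand. Control libraries held 32.7, 28.0, 30.1 and 28.8 CPM and KO libraries 41.0, 42.1, 36.2 and 44.6 CPM. The ranges were narrow in both groups and did not overlap. The difference was 1.37-fold (log2 fold change 0.45 ± 0.12 SE, edgeR quasi-likelihood adjusted p = 0.00686).

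Irf3, the transcription factor that Tbk1 phosphorylates, lies at chr7:44997648-45002848 on the plus strand. Its levels were 9.43, 14, 15.3 and 10.3 CPM in the control and 15.5, 13.6, 24.2 and 10.5 CPM in the KO. The groups overlapped, with KO replicate 3 far above the other libraries. The log2 fold change of 0.38 ± 0.25 SE did not pass the threshold (edgeR quasi-likelihood adjusted p = 0.216), and the exact permutation test gave p = 0.314. The annotated exons of Irf3 share 88 bases with those of Bcl2l12 on the opposite strand, which had 73 to 120 counts in the control and 29 to 67 in the KO, against 141 to 353 and 143 to 393 for Irf3.

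Eif2ak2, the gene for the translation-blocking kinase PKR, lies at chr17:78852564-78882573 on the minus strand. It was measured at 2.35, 1.18, 1.5 and 0.874 CPM in the control and at 4.89, 7.52, 2.96 and 4.67 CPM in the KO. The groups were separate, with control replicate 1 and KO replicate 3 nearest to each other. The log2 fold change was 1.71 ± 0.34 SE (edgeR quasi-likelihood adjusted p = 0.00124), or 3.27-fold. Among the 5032 tested genes with a mean between 1 and 10 CPM, 35.7% were DEGs higher in the KO.

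Adar, the gene for ADAR1, the deaminase that edits adenosines in duplex RNA, lies at chr3:89715022-89753446 on the plus strand. Its levels were 136, 128, 114 and 112 CPM in the control and 87.9, 80.2, 98.9 and 97.6 CPM in the KO. All control libraries were above all KO libraries, and the mean in the KO was 74.4% of that in the control. The log2 fold change was -0.43 ± 0.11 SE (edgeR quasi-likelihood adjusted p = 0.00727), but with library size as the only scaling it was -0.14 (adjusted p = 0.280). Among the 2412 tested genes of at least 100 CPM, 55.3% were lower in the KO at the same adjusted p, and their median log2 fold change was -0.37. Of the exon bases of Adar, 1365 are shared with Chrnb2 on the opposite strand, which had at most 7 counts in any library.

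**Figure D2:**
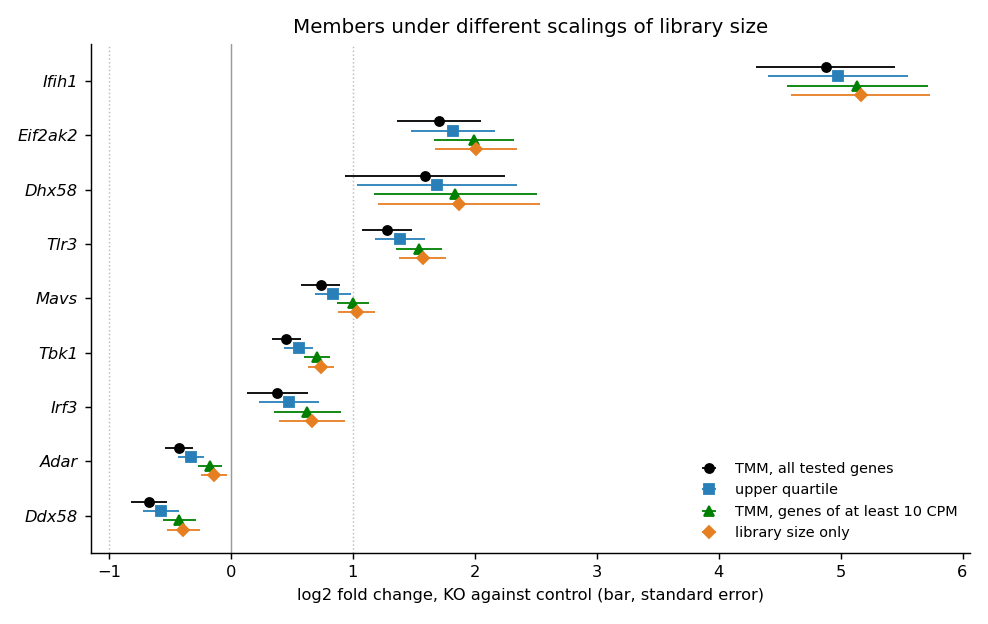
Log2 fold change of each gene, KO against control, with its standard error (horizontal axis), under 4 scalings of the library sizes. The solid line marks 0 and the dotted lines a 2-fold change. All 9 genes keep their sign, and Adar moves from -0.43 under TMM to -0.14 with library size only.

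The scaling bears on these values because it moved the median of all tested genes. Against TMM, the median log2 fold change was 0.29 higher with library size only and 0.25 higher with TMM computed on genes of at least 10 CPM. The share of DEGs that were higher in the KO was 78.4% under TMM, 90.6% with library size only and 89.8% with TMM on genes of at least 10 CPM. Under these alternatives Ddx58 stayed lower and past the threshold, while Adar stayed lower but missed it.

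The sums of granulosa and of stromal markers differed between the groups as well, while those of immune markers overlapped. The part of such cells in these results was not tested. Among all tested genes, 31.2% were higher and 24.1% lower in the KO, and among those between 1 and 10 CPM 44.1% and 15.7%. The marker counts are read only against these shares. In these bulk libraries more cells of another type and more RNA per cell cannot be told apart. The 16 granulosa and cumulus markers summed to between 131 and 182 CPM in the control and between 249 and 312 CPM in the KO, with 7 higher and 1 lower of the 15 tested. The 7 higher ones were Nr5a2 (56.6 CPM in the control and 122 CPM in the KO), Kitl (16 and 43.4), Ptgs2 (2.94 and 36.7), Inha (6.86 and 25.9), Inhba (2.49 and 5.50), Hsd3b1 (2.33 and 5.19) and Fshr (1.29 and 3.87). Cyp19a1 (58.4 and 31.3) was lower, and Foxl2, a defining granulosa gene, had 3 counts over all 8 libraries. The 15 immune cell markers summed to between 23.0 and 31.1 CPM in the control and between 19.7 and 25.1 CPM in the KO, with 3 higher and 1 lower of the 8 tested. The macrophage and myeloid markers Tyrobp, Fcer1g and C1qc had 2 counts each over all libraries. The 10 theca, stromal and endothelial markers summed to between 120 and 152 CPM in the control. In the KO they summed to between 91.7 and 107 CPM, with 0 higher and 2 lower of the 8 tested. The sum lay mostly in the endothelial genes Pecam1 (96.2 and 82.2 CPM) and Tek (31.4 and 15.8). Cyp17a1, Col1a1, Col1a2 and Col3a1 had means of at most 0.374 CPM in either group. The markers named here were chosen after their values were seen, as were Aim2, Dnase2a, Tlr4 and Tlr12 among the pathway genes given later.

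Levels between genes were compared per length, as normalized CPM per kb of annotated exon. In the control the order of means was Adar at 15.1, Mavs at 7.92, Tbk1 at 7.65, Ddx58 at 5.64, Irf3 at 3.56, Tlr3 at 1.45, Eif2ak2 at 0.289, Dhx58 at 0.0535 and Ifih1 at 0.0083. Among neighbours in this order the libraries overlapped for Mavs and Tbk1 and for no other pair. The signalling components Mavs, Tbk1 and Irf3 thus stood above Tlr3 and far above Ifih1 and Dhx58, and Ddx58 was the most abundant sensor. In the KO the order was Mavs at 13.2, Adar at 11.2, Tbk1 at 10.5, Irf3 at 4.63, Ddx58 at 3.54, Tlr3 at 3.52, Eif2ak2 at 0.979, Ifih1 at 0.232 and Dhx58 at 0.160. Neighbours overlapped within Mavs, Adar and Tbk1, within Irf3, Ddx58 and Tlr3, and for Ifih1 and Dhx58. The length of the longest annotated mRNA, an alternative added after the data were seen, put Ddx58 in the second place of the control order at 10.3 and Adar in the first place of both groups.

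**Figure D3:**
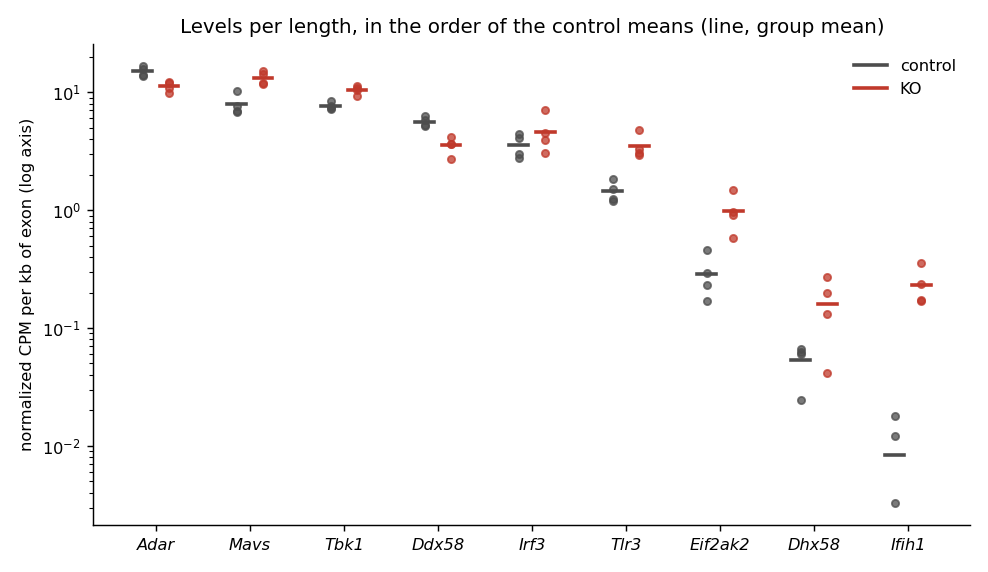
Normalized CPM per kb of exon on a log axis for each gene, in the order of the control means, with 1 point per library and a line at the group mean. The control library of Ifih1 at 0 cannot be drawn on this axis. In the KO the means of Tlr3 and Ddx58 are 3.52 and 3.54 on this scale. Per kb of the longest annotated mRNA (not drawn) they were 4.16 and 6.44, with libraries that overlapped.

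The 3′ untranslated regions (3′UTRs) were searched for elements known to govern mRNA fate in oocytes, in the longest annotated 3′UTR of each gene. The cytoplasmic polyadenylation element (CPE, UUUUAU), bound by CPEB1, occurred in Tlr3 with 5 copies, Ifih1 with 4, Mavs with 2 and Eif2ak2 with 1. Ddx58, Dhx58, Tbk1, Irf3 and Adar had none. The 4 genes with a CPE were all among the 5 that were higher in the KO, but Ifih1 was tested only because it was high there. Among all 15125 genes with a 3′UTR and a test, 56.2% had a CPE, and of those 33.8% were higher and 25.9% lower in the KO, against 26.9% and 30.5% of genes without it. The copies nearest the end of the 3′UTR are shown for the 4 genes, since a CPE acts together with the nearby polyadenylation signal, with the element in capitals and as DNA letters of the transcribed strand (GRCm38).
Ifih1 (chr2:62595828-62595855, minus strand): ttttgtcaataTTTTATttcaatagtta
Mavs (chr2:131247978-131248005, plus strand): atatattctagTTTTATcaggataatta
Eif2ak2 (chr17:78852797-78852824, minus strand): tgtaatagttgTTTTATagggcctcaca
Tlr3 (chr8:45396291-45396318, minus strand): aaagttttgtaTTTTATtttggtgttgg
The element began 2065 bases after the stop codon in Ifih1, 1200 in Mavs, 2326 in Eif2ak2 and 1059 in Tlr3, which left 41, 31, 244 and 432 bases to the annotated end.

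The chance of holding a short element rises with length, and the share of genes with a CPE among genes whose 3′UTR was within 20% of the same length differed accordingly. It was 78.8% for the length of Ifih1 (2111 bases), 66.7% for Tlr3, 60.0% for Mavs and 83.0% for Eif2ak2, and it was 80.8% for Adar, whose 2271 bases held none. For Dhx58, with 273 bases, it was 22.1%. The Pumilio element (UGUAAAUA), a site for Pumilio repressors, occurred in Tbk1 with 2 copies and in Eif2ak2 with 1, against 12% of all genes with any. The AU-rich pentamer (AUUUA), the core of sites for decay factors, occurred in Tlr3 with 5 copies, Eif2ak2 with 3, Ifih1 and Ddx58 with 2 each and Adar with 1, against 69.7% of all genes with any. These matches are a description of letters and no test of binding.

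**Figure D4:**
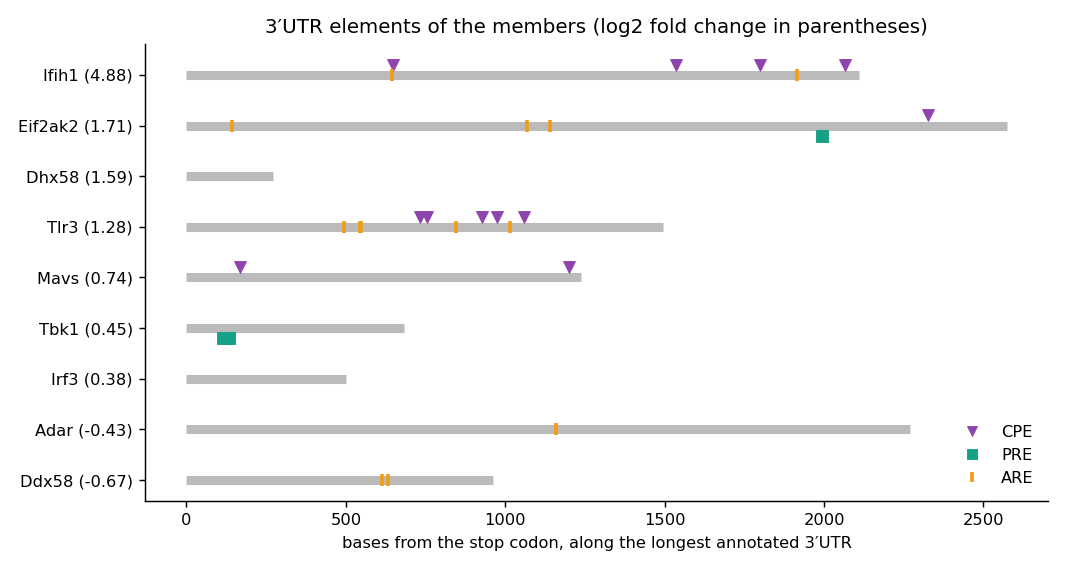
The longest annotated 3′UTR of each gene drawn to scale from the stop codon (horizontal axis, bases), in the order of the log2 fold changes, with marks at each CPE, Pumilio element (PRE) and AU-rich pentamer (ARE). CPEs appear in Ifih1, Eif2ak2, Tlr3 and Mavs.

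Several of these genes are themselves known to be induced by interferon, and their promoters were searched for the core of the interferon-stimulated response element, 2 copies of GAAA separated by 2 bases, on either strand. RefSeq windows from 250 bases before to 50 bases after the start (GRCm38.p6) were at hand for 8 of the 9 genes, without Dhx58. The core occurred in Ifih1, Ddx58 and Eif2ak2, and in 3.44% of all 32851 windows. The matches are shown with the core in capitals, since they mark the 3 genes whose promoters share it. All lie on the minus strand of the chromosome.
Ifih1 (chr2:62646206-62646233): gaagagaatcGAAACAGAAAccgatctg
Ddx58 (chr4:40239804-40239833): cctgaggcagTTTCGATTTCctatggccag
Eif2ak2 (chr17:78882535-78882564): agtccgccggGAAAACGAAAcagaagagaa
The first capital is base 33 in Ifih1, base 3 in Ddx58 and base 19 in Eif2ak2, counted from 1 at the RefSeq start, and in Ddx58 the core reads on the other strand. Of the 3, Ifih1 and Eif2ak2 were higher in the KO and Ddx58 was lower.

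Few counts fell on the interferon genes. Of 11 interferon ligand genes, 8 had no count in any library, and Ifnb1 (interferon beta) was the 1 that passed the filter. Ifnk and Ifng, named after their values were seen, had 9 and 16 counts in all, each in KO libraries only, and did not pass the filter. Ifnb1 had 0, 2, 2 and 0 counts in the control and 1, 6, 6 and 5 in the KO. The pooled ratio was 5.31, with a 95% counting interval of 1.75 to 21.6, and the adjusted p of 0.0613 (edgeR quasi-likelihood) did not pass the threshold. No control library reached the filter for Ifnb1, so it was tested only because it was high in the KO. Its calls are given as a description. Ifnb1 was a DEG higher in the KO with the exact test, library size only, TMM on genes of at least 10 CPM or without control replicate 3. Without the low-count filter 2 other ligand genes, Ifnk and Ifng, were DEGs and Ifnb1 was not. Among 12 genes of interferon receptor signalling, 11 were tested, with 3 higher, of which 2 were DEGs, and 2 lower. The DEGs were 18.2% of those tested, against 23.8% of all tested genes, and the median log2 fold change was 0.02. Both DEGs passed the filter only through the KO libraries, and none of the other 9 was a DEG. Ifngr1, one of them and a receptor chain for interferon gamma, had 2, 3, 0 and 0 counts in the control and 31, 25, 45 and 73 in the KO, a pooled ratio of 41.0 (95% counting interval 17.3 to 128).

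Of 43 interferon-stimulated genes, 34 were tested, with 13 higher, of which 12 were DEGs, and 2 lower, and 19 did not pass the threshold. The DEGs were 35.3% of the list, against 23.8% of all tested genes and 35.5% of those under 1 CPM, where 16 of the 34 lay. The median log2 fold change was 0.91, against 1.05 over all tested genes under 1 CPM. It was 0.82 without a gene that had at most 3 counts in every library. For 11 of the 34, of which 8 were DEGs, fewer than 2 control libraries reached the filter, and 17.4% of the other 23 were DEGs, against 17.3% of all such genes. Rtp4, an interferon-induced chaperone, had 0, 2, 1 and 1 counts in the control and 25, 75, 66 and 151 in the KO, a pooled ratio of 93.5 (95% counting interval 36.2 to 345). Tap1, a peptide transporter for antigen presentation, had 2, 3, 3 and 1 counts in the control and 29, 61, 71 and 60 in the KO, a pooled ratio of 29.0 (15 to 64.2). Both passed the filter only through the KO libraries, as Ifih1 did.

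Of 20 signalling partners of the sensors, 18 were tested, with 8 higher, of which 7 were DEGs, and 4 lower, of which 2 were DEGs. The DEGs higher in the KO were 38.9% of the list, against 23.8% of all tested genes, and the median log2 fold change was 0.16. Of these DEGs, 1 passed the filter only through the KO libraries. Of the other 17 genes, 35.3% were DEGs higher in the KO, against 17.3% of all tested genes that passed through the control. DEGs lower in the KO were 6.56% of all tested genes. Ikbkg (NEMO), the regulatory subunit of the IκB kinase complex, was measured at 5.32, 2.52, 5.17 and 2.11 CPM in the control and at 37.8, 31.1, 41.2 and 43.7 CPM in the KO (log2 fold change 3.32 ± 0.28 SE, edgeR quasi-likelihood adjusted p = 1.85e-06). Unc93b1, which carries Tlr3 and other receptors to endosomes, rose from 0.401, 0.592, 0.408 and 0.655 CPM to 4.56, 3.68, 6.10 and 2.83 CPM (log2 fold change 3.07 ± 0.33 SE, adjusted p = 1.16e-05). Both had all KO libraries above all control libraries.

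Of 19 regulators of RIG-I-like receptors and Mavs, 18 were tested, with 5 higher and 6 lower and a median log2 fold change of -0.05. The list held 1 DEG higher (5.56%) and 2 DEGs lower, against 23.8% and 6.56% of all tested genes. The DEGs lower numbered 0 with library size only and with TMM on genes of at least 10 CPM. Trim25, a ubiquitin ligase linked to RIG-I activation, stood at 0.855, 0.937, 0.680 and 0.146 CPM in the control and at 5.86, 4.01, 6.04 and 8.00 CPM in the KO (log2 fold change 3.10 ± 0.38 SE, edgeR quasi-likelihood adjusted p = 2.99e-05). Zc3hav1 (ZAP), an antiviral protein that binds CpG-rich RNA, stood at 7.64, 9.47, 6.33 and 9.03 CPM in the control and at 4.56, 3.18, 3.02 and 4.02 CPM in the KO (log2 fold change -1.14 ± 0.21 SE, adjusted p = 0.000593). Neither gene had overlapping groups.

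Of 18 other double-stranded RNA binding proteins, 17 were tested, with 4 higher and 6 lower, of which 2 each were DEGs (11.8%). Among all tested genes, 23.8% were DEGs higher and 6.56% were DEGs lower. The median log2 fold change of the list was 0.12. Adarb2, a relative of Adar in the deaminase family without known editing activity, was measured at 27.7, 26.3, 23.5 and 24.8 CPM in the control and at 117, 124, 120 and 113 CPM in the KO (log2 fold change 2.21 ± 0.11 SE, edgeR quasi-likelihood adjusted p = 5.6e-08). The groups were far apart and narrow. Adad2, a germ cell relative of the same family, was measured at 1.23, 4.49, 5.37 and 4.95 CPM in the control and at 1.85, 1.10, 1.79 and 0.681 CPM in the KO (log2 fold change -1.60 ± 0.46 SE, adjusted p = 0.0105). Control replicate 1 lay among the KO libraries for Adad2.

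Of 10 genes of DNA sensing, 5 were tested, with 2 higher, both DEGs, and 2 lower, of which 1 was a DEG. The 2 DEGs higher were 40.0% of those tested. Among all tested genes, 23.8% were DEGs higher and 6.56% were DEGs lower. The median log2 fold change of the list was 0.02. The DEGs higher in the KO, Aim2 and Dnase2a, had 11 and 25 counts in all and passed the filter only through the KO libraries, and with at least 1 CPM in 4 libraries the list held 0. Mb21d1, the gene for the DNA sensor cGAS, was measured at 111, 76.1, 78.5 and 83.5 CPM in the control and at 37.9, 44.4, 42.3 and 46.0 CPM in the KO (log2 fold change -1.03 ± 0.14 SE, edgeR quasi-likelihood adjusted p = 6.84e-05). Its fold change sat just past the 2-fold threshold, and no gene of the list was a DEG lower in the KO with library size only. Of 11 other Toll-like receptors, 6 were tested, with 4 higher, of which 3 were DEGs, and 0 lower, and a median log2 fold change of 1.83, or 1.11 with bounds. Of these DEGs, Tlr4 and Tlr12 had 13 and 10 counts in all and passed the filter only through the KO libraries, which leaves Tlr8. Tlr8, a receptor for single-stranded RNA, was measured at 8.95, 3.65, 5.37 and 3.79 CPM in the control and at 27.2, 33.3, 30.5 and 38.6 CPM in the KO (log2 fold change 2.55 ± 0.27 SE, adjusted p = 1.01e-05).

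Of the 3 other kinases of eIF2α, 1 was higher and 2 were lower, where 31.2% of all tested genes were higher and 24.1% lower. The median log2 fold change of the 3 kinases was -0.46. Eif2ak3 (PERK), the kinase of the unfolded protein response, was measured at 12.4, 7.5, 11 and 9.03 CPM in the control and at 48.7, 46.5, 51.5 and 56.0 CPM in the KO (log2 fold change 2.34 ± 0.17 SE, edgeR quasi-likelihood adjusted p = 6.12e-07). Eif2ak4 (GCN2), the amino acid sensor, was measured at 124, 110, 104 and 112 CPM in the control and at 54.6, 56.1, 49.4 and 53.7 CPM in the KO (log2 fold change -1.07 ± 0.11 SE, adjusted p = 6.7e-06). For both genes the groups did not overlap. The fold change of Eif2ak4 sat just past the 2-fold threshold. DEGs lower in this list numbered 0 with library size only, upper quartile scaling or TMM on genes of at least 10 CPM. Eif2ak2, the kinase of this family that senses double-stranded RNA, was higher in the KO, as Eif2ak3 was.

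**Figure D5:**
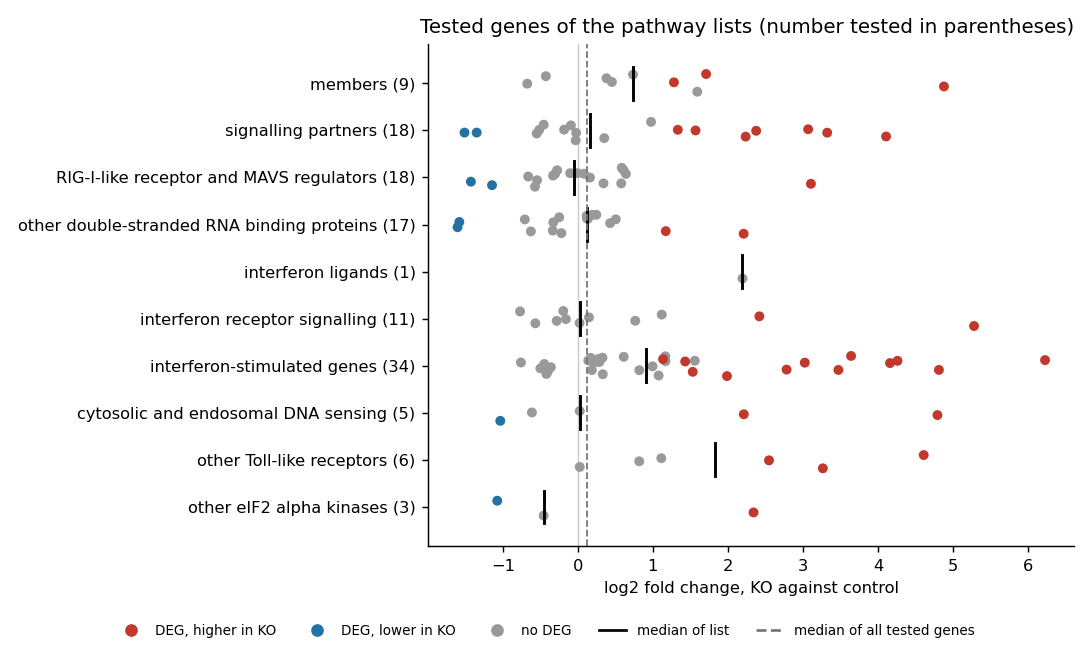
Log2 fold change, KO against control (horizontal axis), of every tested gene in the 9 genes followed here and in each pathway list, with the number tested in parentheses, DEGs in colour, a black line at the median of the list and a dashed line at the median of all tested genes. The medians are 0.74 for the 9 genes, 0.91 for the interferon-stimulated genes and 0.12 for all tested genes, with 1.05 for all tested genes under 1 CPM.

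The pattern over the 8 libraries was also compared across genes, for Eif2ak2, the gene with the largest change among the members of at least 1 CPM. Among 13757 other genes of at least 1 CPM, those whose centred log2 CPM differed least from its own were D330045A20Rik, Vav3 and D830032E09Rik, with root mean square differences of 0.193, 0.201 and 0.209. Vav3 was measured at 17.7, 7.65, 13.3 and 8.30 CPM in the control and at 37.2, 44.1, 25.4 and 35.4 CPM in the KO. The likeness of these profiles is what chose the genes.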

How the data were processed

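The deposited table holds raw counts per gene for 46078 genes in 8 libraries of GV oocytes. Per the study's methods and the labels, the authors prepared stranded libraries after removal of ribosomal RNA (the sources name different kits), sequenced 150-base pairs after 11 PCR cycles and mapped them to GRCm38 with STAR 2.6.1d within nf-core/rnaseq. The counting tool, its annotation and its strand setting are not given in the sources used here, so reads of genes that overlap on opposite strands may be mixed. Reads without molecular identifiers are not independent molecules, and intervals and floors cover counting error only.

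Groups came from the labels. Genes with at least 0.2 CPM in 2 libraries (19241) were tested with the quasi-likelihood test of edgeR 4.0.16 after TMM scaling, without covariates, and p-values were adjusted by Benjamini-Hochberg over all of them. The authors used the exact test of edgeR 3.11, which was an alternative here, as were DESeq2 1.42.0, 4 other scalings, 3 other filters, the replicate number as a block, and leaving out libraries. The test scripts were tested on simulated data. Same-numbered libraries did not deviate together (r from -0.278 to 0.244 across genes). No 2 libraries of a group agreed within sampling noise, the closest having a chi-square of 8.48 per degree of freedom.

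Exact permutation tests used all 70 assignments. Coordinates and 3′UTRs came from GENCODE vM21, where 98.0% of the gene identifiers matched, and promoters from RefSeq. The 9 genes, the pathway lists and the tests were chosen with earlier results of these data known. Named were the 9 genes, Cnot7, Cnot8, up to 2 DEGs of each list with the largest absolute log2 fold change and a mean of at least 1 CPM, and the 3 genes most like Eif2ak2. Proteins were not analysed here.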

Additional observations from a re-analysis of the deposited data

Results flagged for a closer look

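The level of Dhx58 in control replicate 1 was 0.0802 CPM, against 0.197 to 0.218 CPM in the rest of its group, a gap that is past Dixon's critical value for 4 samples. This library had 3 counts of the gene, as did control replicates 3 and 4, in the deepest library of the series. It was the 1 such case among 18 groups of 4 libraries, where chance gives 0.9.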

How the results depend on the processing

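Of 169 values of the 9 genes under the alternatives, 162 kept their direction and their side of the threshold, 2 lost the call, 5 gained it and 0 reversed. Adar lost it with library size only (-0.14) and with TMM on genes of at least 10 CPM (-0.17, adjusted p = 0.148 by edgeR), which left 1 of the 9 genes lower. Dhx58 gained it with library size only (1.87), upper quartile scaling (1.69), TMM on genes of at least 10 CPM (1.84), without KO replicate 4 (2.0) and without control replicate 1 and KO replicate 4 together (1.64). With library size only, 5 of the 9 genes were DEGs higher in the KO, and with a 1.5-fold threshold 1 was a DEG lower in the KO. Over all genes, DEGs lower in the KO numbered 588 with library size only and 627 with TMM on genes of at least 10 CPM, against 1263, and DEGs higher in the KO numbered 2882 with at least 1 CPM in 4 libraries, against 4582, where 13876 genes were tested. With the replicate block, 4316 DEGs were higher and 1254 lower, and no call among the 9 genes changed. Leaving out a replicate gave 4257 to 4601 DEGs higher and 1028 to 1433 lower. The floor of 3 counts limits Ifih1 and Dhx58 most.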
